A study of Rattus norvegicus with 192 samples.

Results

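The hypothalamus of rats given PFOS was compared with the hypothalamus of rats given vehicle, gene by gene, over 12 PFOS libraries (labelled Hypothalamus_PFOS, numbers 25 to 36) and 12 vehicle libraries (labelled Hypothalamus_Ctrl, numbers 1 to 12). These were 24 of the 192 libraries in the series, chosen by their labels, and all 24 held at least 100000 counts. The animals were adult male wild type rats of the outbred Crl:CD(SD) stock. PFOS (perfluorooctane sulfonate, a persistent perfluorinated surfactant) was given in 1 gavage a day at 3 mg per kg body weight for 7 days, from postnatal day 56 to 62, and the vehicle rats received corn oil. Further rats received 8 mg per kg vancomycin with 3 mg per kg PFOS (11 libraries kept of 12) or vancomycin alone (12 libraries). They entered the same statistical model and gave a further estimate of the PFOS effect. RNA was measured by 3' bulk RNA barcoding sequencing, which tags the polyadenylated RNA of each well with a barcode, pools the wells, and counts transcript ends per gene. Each treatment filled its own plate row, so treatment and row cannot be told apart. The labels do not say whether the numbered samples are separate animals, and the p-values measure the spread between these samples.

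The hypothalamus joins neural signals to the endocrine system. Its magnocellular neurons make oxytocin (Oxt) and vasopressin (Avp), its parvocellular neurons release factors such as thyrotropin-releasing hormone (Trh) and somatostatin (Sst) that steer the pituitary, and its arcuate and lateral neurons make feeding and arousal peptides. PFOS is known in rodents for lowering circulating thyroid hormone and for inducing nuclear receptor target genes in liver. Cytosolic ribosomal proteins, encoded in the nucleus, form the small (Rps) and large (Rpl) subunits of the ribosome, and their mRNAs are among the most abundant of a cell.

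One library did not carry the profile of its label. In the library labelled Hypothalamus_PFOS 31, Oxt stood at 5.07 CPM (counts of a gene scaled to a library of 1e6 counts), against 368 to 1905 CPM in the other 46 hypothalamus libraries. Avp was at 1.01 CPM there and at 157 to 925 CPM in the others. Pmch, which encodes melanin-concentrating hormone, was at 8.11 CPM there and at 404 to 3218 CPM in the others, and Sst was at 20.3 CPM there and at 255 to 461 CPM in the others. Of 26 hypothalamic peptide and hormone genes measured, 20 were lower in library 31 than in every other hypothalamus library and 2 (Cck and Tac3) were higher than in every other. The same library held the highest level of Gabrd, a GABA-A receptor subunit gene (200 CPM, against 0 to 26.2 CPM), of Ramp3, a receptor activity-modifying protein gene (529 CPM, against 19.9 to 116 CPM), of Prkcd, the gene of protein kinase C delta (386 CPM, against 3.03 to 85.3 CPM), and of the Wnt pathway transcription factor gene Tcf7l2 (514 CPM, against 38.3 to 136 CPM). It had 38 genes at over 2 times the highest level of the other libraries among genes at 50 CPM or more, where the other 11 PFOS and the 12 vehicle libraries had 0. Library 31 was deep, with 1028625 counts, and its label was kept, so counts of calls, list medians and the fold changes of the genes most described are given with all 12 PFOS libraries and without it.

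**Figure D1:**
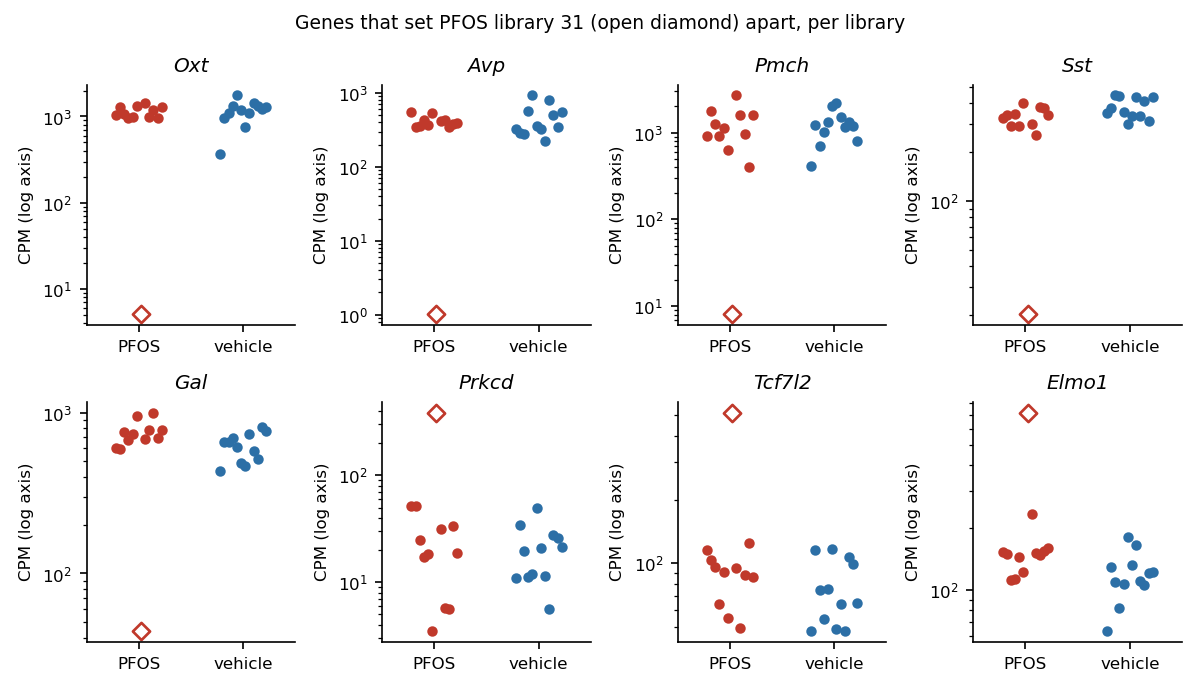
Level per library in CPM on a log axis, PFOS libraries left and vehicle libraries right, for 5 peptide genes (Oxt, Avp, Pmch, Sst, Gal) and 3 genes that were high in PFOS library 31 (Prkcd, Tcf7l2, Elmo1). The open diamond is PFOS library 31, with Oxt at 5.07 CPM and Tcf7l2 at 514 CPM, whereas the other PFOS libraries overlap the vehicle libraries for every gene shown.

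The remaining libraries carried the marks of hypothalamus. Mean vehicle levels were 1113 CPM for Oxt, 1198 CPM for Pmch, 1036 CPM for the neuronal gene Snap25 and 3320 CPM for the myelin gene Mbp, while levels differed among markers of tanycytes and ependyma (Rax 0.448, Foxj1 0.579, Rarres2 61.6 and Vim 93.8 CPM) and of choroid plexus (Kl 0.644, Ttr 7.26 and Folr1 10.02 CPM). The growth hormone gene Gh1, a pituitary transcript, was counted at 4526 CPM in vehicle libraries, above each marker just named. That was 1.55% of its level in the pituitary libraries of the same plate. For the pituitary hormone genes Prl, Lhb, Cga and Tshb the percentages were 0.536, 2.25, 3.73 and 4.71%. Library totals ran from 379843 to 1075712 counts in the PFOS group and from 502061 to 1240091 counts in the vehicle group. Means were 700533 counts in PFOS libraries and 905432 counts in vehicle libraries, a difference of -204899 counts (permutation test, two-sided, p = 0.0424), and without library 31 the difference was -234725 counts (permutation test, two-sided, p = 0.0230). Depth therefore moved with treatment, and results are also given with the log2 library total as a covariate and within the range of totals that both groups covered (502061 to 1075712 counts, 10 PFOS and 8 vehicle libraries).

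With all 12 PFOS libraries, 288 of 6596 genes tested (4.37%) passed an adjusted p of 0.05, 76 higher (1.15%) and 212 lower (3.21%) in PFOS than in vehicle hypothalamus (edgeR quasi-likelihood test, Benjamini-Hochberg adjustment over all genes tested). Without library 31, 54 of 6537 genes (0.826%) passed, 13 higher (0.199%) and 41 lower (0.627%), and 52 of the 54 were among the 288. The direction was the same without library 31 for 287 of 287 called genes that were tested in both fits, and 286 had an unadjusted p under 0.05. Over all genes tested in both fits it was the same for 6052 of 6537, and 1128 (17.3%) had an unadjusted p under 0.05. The called genes were chosen by p from libraries that these refits reuse. Kept directions here and in later refits are therefore no separate check. For called genes the median ratio of the fold change without library 31 to that with it was 0.920 (0.931 over all genes). For some rises that stood far apart in library 31 the fold change shrank much more than that. The number of calls also moved with other libraries. It fell to 40 without vehicle library 1, to 66 without vehicle library 5, to 125 without vehicle library 6, to 89 without vehicle library 9 and to 85 without vehicle library 10. These were the deepest vehicle libraries, at 1063790 to 1240091 counts. With another vehicle library left out instead, the count was 239 to 454. Among PFOS libraries it fell to 171 without library 28, 186 without 29, 173 without 30, 110 without 32, 145 without 33 and 168 without 34. It was 454 without vehicle library 8 and 490 without PFOS library 25.

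Once the log2 library total entered the model, Rpl7 and Slc38a1 were the 2 genes past the threshold (0.0303%), both lower. At an unadjusted p under 0.05, 897 genes passed in that fit (13.6%), and at an adjusted p under 0.10, 44 genes did (0.667%), 17 higher and 27 lower. Of the 288 called genes, 288 kept their direction with the covariate and 284 had an unadjusted p under 0.05, with fold changes at a median of 0.758 of those without it. Over all 6596 genes 5761 kept their direction, at a median ratio of 0.783. Library total itself was related to many genes, since the slope on log2 total passed for 1280 genes (19.4%). Of the 212 lower genes 142 had a called positive slope, against 762 of all 6596 genes. PFOS libraries were the shallower group, so a fit without depth tends to pick such genes as lower, and this overlap is no separate check. Within the shared range of totals 0 genes passed and 529 of 6648 (7.96%) had an unadjusted p under 0.05. Without library 31 and with the covariate, only Rpl7 passed in the edgeR test (1 of 6537 genes), and 550 genes (8.41%) had an unadjusted p under 0.05. Depth and treatment overlapped in these libraries, and the part of depth in the calls was not tested beyond these fits. For single genes below, fold changes and adjusted p-values are without the covariate unless it is named.

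**Figure D2:**
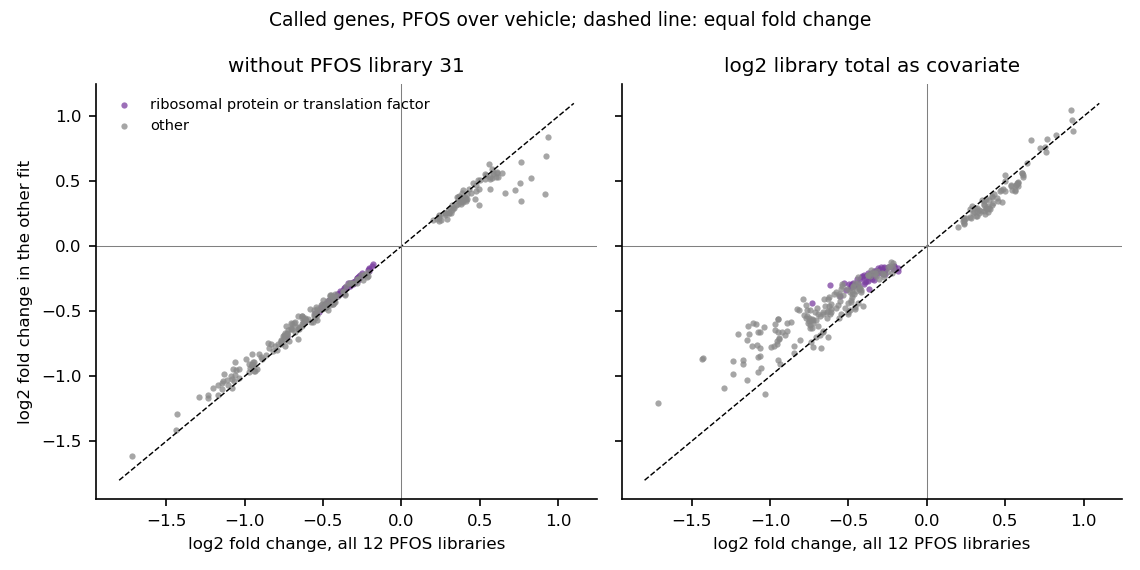
Log2 fold change (PFOS over vehicle) of the called genes with all 12 PFOS libraries, on the x axis, against the fold change without PFOS library 31 (left) and with the log2 library total as covariate (right), each point 1 gene and the dashed line equality. Points lie near the line on the left (median ratio 0.920) and closer to 0 than the line on the right (median ratio 0.758).

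Many cytosolic ribosomal protein genes were lower in PFOS hypothalamus. The file listed 84 such genes by name, 5 were too scarce to test, and of the 79 tested 51 fell and 0 rose with all 12 PFOS libraries, against 3.21% of all genes that fell. Their median log2 fold change was -0.30, where the median over all genes tested was 0.00. Without library 31 the count was 12 lower and 0 higher (background 0.627% lower and 0.199% higher), with a median of -0.27. With the covariate 1 of the 79 passed the adjusted threshold, and within the shared range of totals 0 did. The median was -0.19 in both, and at an unadjusted p under 0.05 there were 60 lower with the covariate (background 13.6% in both directions) and 44 lower within the shared range (background 7.96%). With library 31 left out as well, the median was -0.14 with the covariate and -0.16 within the shared range, with 44 lower at an unadjusted p under 0.05 in the first (background 8.41% in both directions) and 30 in the second (background 5.5%). These genes also followed depth: the slope on log2 total was called for 62 of 79, and 61 of those slopes were positive, with a median of 0.27 per doubling of the total (0.30 without library 31). Over all genes that slope was called for 19.4%, and for 22.7% without library 31.

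Rpl7, a large-subunit protein gene, had the smallest p of all genes and passed in each of these edgeR fits except within the shared range. Its level was 730 to 1040 CPM (median 893) in PFOS libraries and 962 to 1372 CPM (median 1176) in vehicle libraries. In all, 10 of the 12 PFOS libraries lay below the lowest vehicle library, library 31 among them as the lowest, and the other PFOS libraries ran from 860 CPM upward. Its log2 fold change was -0.37 ± 0.06 (SE; edgeR adjusted p = 0.000129), -0.34 without library 31 (edgeR adjusted p = 0.000714) and -0.33 with the covariate (edgeR adjusted p = 0.00102). Rpl5, whose protein binds 5S ribosomal RNA, had 437 to 646 CPM (median 547) in PFOS libraries and 579 to 925 CPM (median 674) in vehicle libraries, a log2 fold change of -0.40 ± 0.08 (edgeR adjusted p = 0.00321, and 0.0136 without library 31). For Rpl5, 8 PFOS libraries were below all vehicle libraries, and the groups overlapped in the rest. Rpl23a, at the exit of the peptide tunnel, had 1297 to 2135 CPM (median 1661) in PFOS libraries and 1819 to 2548 CPM (median 2258) in vehicle libraries, a log2 fold change of -0.38 (edgeR adjusted p = 0.00747, and 0.0260 without library 31). The largest fold change among called ribosomal protein genes was that of Rps12, a small-subunit gene, at -0.73 with 359 to 682 CPM in PFOS libraries and 373 to 1159 CPM in vehicle libraries, so its groups overlapped widely (edgeR adjusted p = 0.0181). Without library 31 the Rps12 change was -0.69 (edgeR adjusted p = 0.0465). With the covariate the changes were -0.29 for Rpl5, -0.27 for Rpl23a and -0.44 for Rps12, and none of these passed.

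Among 38 cytosolic translation factor genes tested, 7 fell and 0 rose with all 12 PFOS libraries (background 3.21%), namely Btf3, Eef1a1, Eef1b2, Fau, Naca, Rack1 and Tpt1, of which Fau also stood in the ribosomal protein list. Without library 31 Eef1a1 and Rack1 were lower past the threshold (background 0.627%), and the list median was -0.12 with that library and -0.10 without it. Eef1a1 encodes the elongation factor that delivers aminoacyl-tRNA to the ribosome, and it had 1940 to 3665 CPM (median 2556) in PFOS libraries and 2700 to 4818 CPM (median 3525) in vehicle libraries. On the log2 scale the change was -0.48 ± 0.11 (edgeR adjusted p = 0.0141, and 0.0398 without library 31). With the log2 total as covariate the Eef1a1 change was -0.32 and did not pass. Rack1 encodes a scaffold protein of the small subunit and had 555 to 817 CPM (median 667) in PFOS libraries and 632 to 1021 CPM (median 898) in vehicle libraries, with a log2 fold change of -0.35 (edgeR adjusted p = 0.00747, and 0.0260 without library 31). Mitochondrial ribosomal protein genes, which serve the separate ribosome of mitochondria, had 0 of 69 called (background 4.37%), and 0 without library 31 (background 0.826%). At an unadjusted p under 0.05 there were 7 of them, against 20.6% of all genes, and their median log2 fold change was 0.00 (-0.01 without library 31).

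Vertebrate ribosomal protein genes and several translation factor genes are known to start transcription within a pyrimidine-rich stretch. The 30 bases around the annotated start (20 before it and 10 from it on, RefSeq, assembly GRCr8) are shown for the 8 called ribosomal protein or translation factor genes with the smallest p that have a single entry in the table, because these genes moved together, and for 2 mitochondrial ribosomal protein genes with the highest levels for contrast. Capitals mark CCTTT or TCTTT on the gene's strand.
Rpl5 (chr14:1995216-1995245, minus strand): cagccactcTCTTTcccacgtcgcttgcgt
Rack1 (chr10:33670530-33670559, plus strand): ccccgccttgctctccgagtatttccggtt
Rpl7a (chr3:30637116-30637145, plus strand): tttctctctcctccagccgagcaagatggt
Rpl13a (chr1:104748904-104748933, minus strand): caagacctcttCCTTTcctaggcggctgcc
Rpl4 (chr8:73566457-73566486, plus strand): agtgataagttcttCCTTTtcctgtgggag
Eef1a1 (chr8:88225060-88225089, minus strand): ggtagtcgccttggacgtTCTTTttcgcaa
Rpl21 (chr12:13386144-13386173, minus strand): ccctcttCCTTTccgccggggcagccatct
Rps15 (chr7:10068106-10068135, minus strand): gcagccgctgacaccgcttCCTTTtcccag
Mrpl17 (chr1:169575690-169575719, minus strand): actgcgcatgcgtcctctggaaagtgactc
Mrpl51 (chr4:159677968-159677997, plus strand): gtcaggcgtcgcgcccgcagagtccgcaac
Of the windows of 24206 genes with a single entry, 7.18% held CCTTT or TCTTT on the gene's strand and 6.84% on the other strand. For the 5101 genes tested that had a window, the shares were 6.23% on the gene's strand and 3.82% on the other. Among tested cytosolic ribosomal protein genes with a window it was 34 of 61 (55.7%) on the gene's strand and 0 on the other. The share was 22 of 38 among those that fell and 12 of 23 among those not called. It was 5 of 52 among mitochondrial ribosomal protein genes. Other called genes held it at 9 of 125 (7.20%) where lower and 2 of 61 (3.28%) where higher.

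The summed share of counts in cytosolic ribosomal protein genes showed the same difference library by library. It ran from 7.81 to 11.9% in PFOS libraries (median 10.3%, mean 10.3 ± 1.08%, SD, n = 12) and from 10.4 to 14.1% in vehicle libraries (median 12.3%, mean 12.2 ± 1.08%, SD, n = 12). Library 31 was the lowest at 7.81%, and without it PFOS libraries ran from 9.48 to 11.9% (mean 10.5 ± 0.79%, SD, n = 11). Vehicle libraries with few counts tended to hold lower shares than deep ones, with 10.4% at 502061 counts and 14.1% at 1118748 counts. The relation was loose, with 10.8% at 920185 counts and 12.6% at 1240091 counts. Among PFOS libraries the highest share of 11.9% lay at 813442 counts. The PFOS share was 10.3% at the lowest total (379843 counts) and 10.7% at the highest (1075712 counts). Within the shared range of totals the mean share was 10.3 ± 1.20% in 10 PFOS libraries and 11.7 ± 0.89% in 8 vehicle libraries, and 10.6 ± 0.86% in the 9 PFOS libraries other than 31. Vancomycin libraries were shallower than vehicle libraries too, with a mean of 740349 counts, and their share of 12.1 ± 1.09% (n = 12) stood beside 12.2% in vehicle. Within the vancomycin group the lowest share, 9.93%, lay at 352901 counts and the highest, 13.3%, at 1035649 counts. The part of depth in these shares was not tested.

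**Figure D3:**
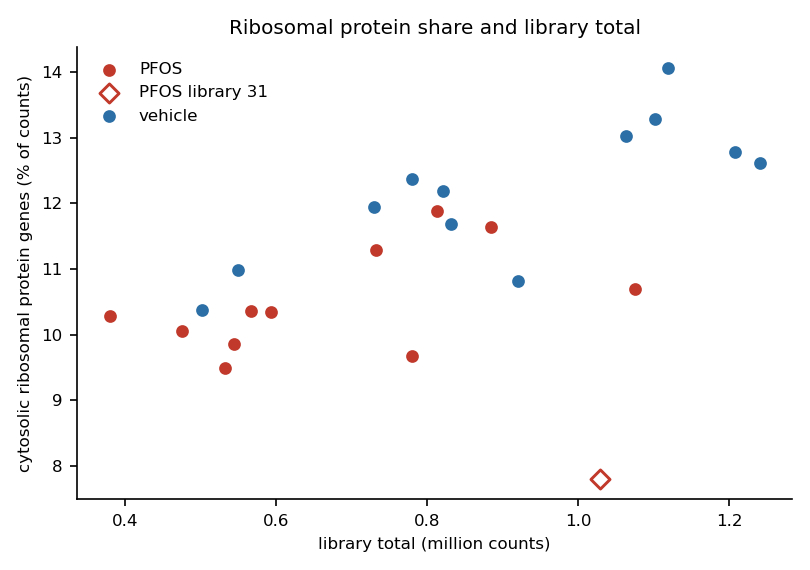
Share of counts in cytosolic ribosomal protein genes (percent) against the library total (in units of 1e6 counts), each point 1 hypothalamus library, PFOS in red with library 31 as an open diamond, vehicle in blue. Vehicle shares tend to be lower at low totals than at high ones, with scatter. PFOS libraries hold more of the low totals, and the PFOS shares reach 11.9% at most, against 14.1% in vehicle.

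**Figure D4:**
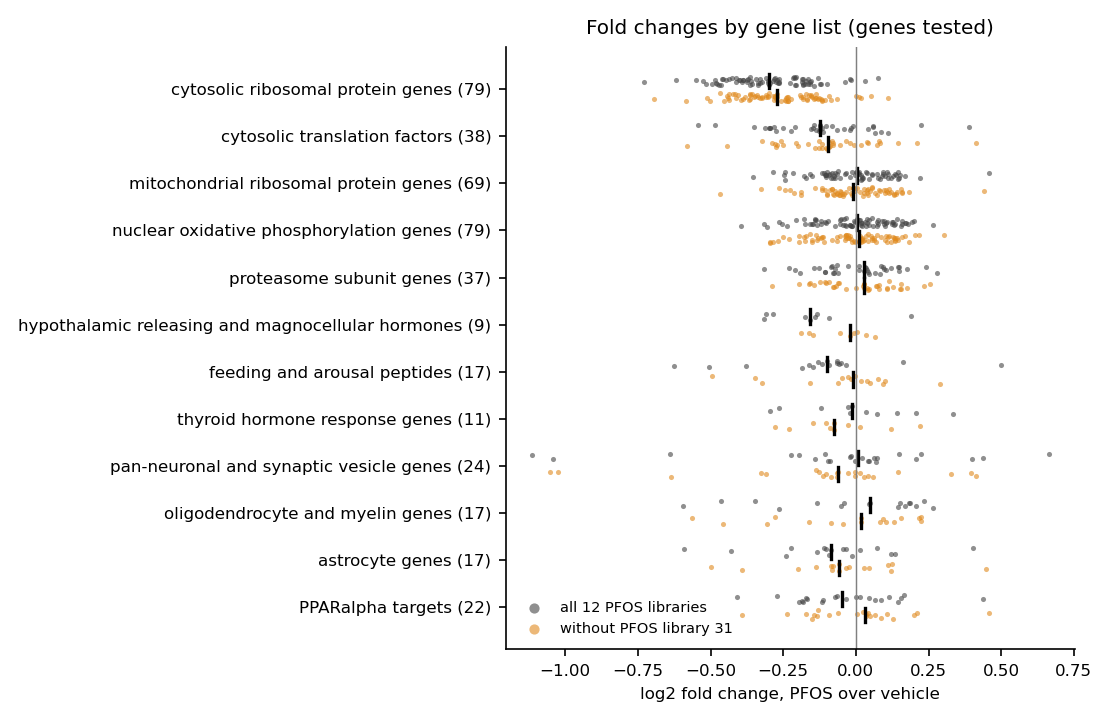
Log2 fold change (PFOS over vehicle) of each tested member of 12 gene lists, with all 12 PFOS libraries in grey and without library 31 in orange; black bars are list medians and numbers in brackets count the genes tested. Cytosolic ribosomal protein genes lie left of 0 (medians -0.30 and -0.27), mitochondrial ribosomal protein genes centre on 0, and the 2 peptide lists move to 0 once library 31 is left out.

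Outside the lists of cytosolic ribosomal protein genes and translation factors, 155 genes fell with all 12 PFOS libraries, with a median log2 fold change of -0.66. They still held genes of ribosomal or translation function by name, such as Rpl35al1, Rpl36al, Etf1 and Gspt1. Most were scarce transcripts, at a median level of 26.99 CPM in PFOS and 43.7 CPM in vehicle libraries. Without library 31, 154 of 154 tested kept their direction and 26 passed. Slc38a1, a neutral amino acid transporter that carries glutamine into neurons, had 6.92 to 28.2 CPM (median 15.9) in PFOS libraries and 17.95 to 52.2 CPM (median 35.9) in vehicle libraries. Below every vehicle library were 8 PFOS libraries. The log2 fold change was -1.15 ± 0.20 (edgeR adjusted p = 0.000833), -1.05 without library 31 (edgeR adjusted p = 0.00413) and -1.03 with the covariate (edgeR adjusted p = 0.0126). With the covariate and without library 31 it was -0.88 and did not pass after adjustment (unadjusted p = 3.93e-05 in the edgeR fit across all genes).

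Among 18 tested genes of GABA and glutamate transmission 3 fell and 0 rose, among 24 pan-neuronal and synaptic vesicle genes 1 fell and 1 rose, and among 15 postsynaptic scaffold and neuronal adhesion genes 2 fell and 1 rose (background 3.21% lower and 1.15% higher). Their median log2 fold changes were 0.04, 0.01 and -0.07. Without library 31 the counts were 1, 1 and 2 lower and 0 higher in each (background 0.627% lower and 0.199% higher), with medians of 0.00, -0.06 and -0.02. Ptpre, a receptor-type tyrosine phosphatase gene, had 4.06 to 20.6 CPM in PFOS and 13.3 to 50.4 CPM in vehicle libraries, a log2 fold change of -1.17 (edgeR adjusted p = 0.00321, and 0.0157 without library 31). Negr1, a neuronal adhesion gene linked to body weight in human association studies, had 1.90 to 30.6 CPM in PFOS and 14.4 to 51.3 CPM in vehicle libraries (log2 fold change -1.23, edgeR adjusted p = 0.00747, and 0.0260 without library 31). Both genes rested on few counts per library, and their groups overlapped. Pclo encodes the presynaptic scaffold piccolo and changed by -0.94 on the log2 scale (edgeR adjusted p = 0.00747, and 0.0186 without library 31). Sptbn1 encodes beta spectrin of the membrane skeleton and changed by -0.95 (edgeR adjusted p = 0.00747, and 0.0260 without library 31). Map2, which encodes a dendritic microtubule-associated protein, had 29.4 to 119 CPM in PFOS and 62.6 to 237 CPM in vehicle libraries, a change of -1.11 (edgeR adjusted p = 0.0133, and 0.0391 without library 31). For Map2, 7 PFOS libraries were below every vehicle library. With the log2 total as covariate the Map2 change was -0.77 and did not pass. Shank2, a postsynaptic scaffold gene, changed by -0.74 (edgeR adjusted p = 0.0181, and 0.0360 without library 31), and Rab2a, a GTPase gene of early secretory transport, by -0.95 (edgeR adjusted p = 0.0141, and 0.0391 without library 31).

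Fabp5, a fatty acid-binding protein gene, was better counted. It had 155 to 253 CPM (median 200) in PFOS libraries and 212 to 373 CPM (median 269) in vehicle libraries, and 9 PFOS libraries were below every vehicle library. Its log2 fold change was -0.49 ± 0.10 (edgeR adjusted p = 0.00747, and 0.0260 without library 31). Pnma8b, a gene of the paraneoplastic Ma antigen family, had the largest fall at -1.72 ± 0.38 (edgeR adjusted p = 0.0133, and 0.0391 without library 31), with 0 to 15.3 CPM in PFOS and 3.99 to 43.98 CPM in vehicle libraries. The next largest falls did not pass without library 31: Pou3f3, a neural transcription factor gene (-1.43, edgeR adjusted p = 0.0257, and 0.0544 without library 31), Tmed5, a secretory cargo receptor gene (-1.43, edgeR adjusted p = 0.0406, and 0.0913 without it), Zfp474 (-1.29, edgeR adjusted p = 0.0193, and 0.0513 without it) and Smim17 (-1.24, edgeR adjusted p = 0.0199, and 0.0513 without it). With the log2 total as covariate the changes of these genes were -0.87, -0.86, -1.09 and -0.88, and none passed. Leaving out some other libraries also lost these calls. Of 24 fits that each left out 1 library, Pou3f3 passed in 18, Tmed5 in 10, Zfp474 in 22 and Smim17 in 21. The GABA synthesis gene Gad2 and the GABA-A receptor subunit gene Gabra2 fell by 1.06 and 1.09 on the log2 scale with all libraries. Gad2 was at 0 CPM in library 31, and the edgeR adjusted p without it was 0.0913 for Gad2 and 0.0595 for Gabra2. Both were scarce, at 0 to 21.2 CPM in PFOS and 3.99 to 38.5 CPM in vehicle libraries.

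The 76 genes that rose with all 12 PFOS libraries were more abundant than the falls (median level 184 CPM in PFOS and 128 CPM in vehicle libraries), with a median log2 fold change of 0.41. Without library 31, 12 of the 76 passed and 76 of 76 kept their direction. Apbb1, which encodes the amyloid precursor protein adaptor Fe65, had 459 to 796 CPM (median 548) in PFOS and 299.6 to 626 CPM (median 404) in vehicle libraries. All 12 PFOS libraries were above the vehicle mean, and only library 31 was above the highest vehicle library. Its log2 fold change was 0.39 ± 0.08 (edgeR adjusted p = 0.00747), and 0.34 without library 31 (edgeR adjusted p = 0.0260). Stk11, the gene of the kinase LKB1 that activates AMP-activated protein kinase, had 180 to 332 CPM (median 229) in PFOS and 137 to 204 CPM (median 178) in vehicle libraries. Above the highest vehicle library were 11 PFOS libraries, and the log2 fold change was 0.43 ± 0.10 (edgeR adjusted p = 0.0123), and 0.44 without library 31 (edgeR adjusted p = 0.0260). Ube2v1, a ubiquitin-conjugating enzyme variant gene, had 509 to 760 CPM (median 686) in PFOS and 392.5 to 684 CPM (median 487) in vehicle libraries, a log2 fold change of 0.39 (edgeR adjusted p = 0.00796, and 0.0260 without library 31). With the log2 total as covariate the changes were 0.36 for Apbb1, 0.40 for Stk11 and 0.30 for Ube2v1, and none of these passed.

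Ap2m1 encodes a subunit of the clathrin adaptor AP-2 and had 1049 to 1710 CPM (median 1219) in PFOS and 824 to 1341 CPM (median 978) in vehicle libraries, a log2 fold change of 0.33 (edgeR adjusted p = 0.0141, and 0.0398 without library 31). Lpin2, a phosphatidate phosphatase gene, rose by 0.61 on the log2 scale (edgeR adjusted p = 0.0143, and 0.0407 without library 31). B4galt6, a lactosylceramide synthase gene, rose by 0.58 (edgeR adjusted p = 0.0181, and 0.0465 without library 31), and so did Fam120b, a nuclear receptor coactivator gene, by 0.58 (edgeR adjusted p = 0.0193, and 0.0391 without library 31). Zfp644, a zinc finger gene, rose by 0.61 (edgeR adjusted p = 0.0147, and 0.0409 without library 31), and Emc9, a subunit gene of the endoplasmic reticulum membrane complex, by 0.35 (edgeR adjusted p = 0.0222, and 0.0379 without library 31). Among the 12 rises with the smallest p, 3 lost the call without library 31: Tbc1d9b (edgeR adjusted p = 0.0513), the mitochondrial malic enzyme gene Me2 (edgeR adjusted p = 0.0513) and the calcium sensor gene Ncald (edgeR adjusted p = 0.0541).

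None of the 6 largest rises passed without library 31 (edgeR). Elmo1, a Rac activation gene, was at 718 CPM there, against 112 to 234 CPM in the other PFOS libraries and 63.2 to 180 CPM in vehicle libraries. Its log2 fold change was 0.77 with library 31 (edgeR adjusted p = 0.0322) and 0.35 without it (edgeR adjusted p = 0.109). Lrtm2, a leucine-rich repeat membrane protein gene, was at 1907 CPM there, against 375 to 875 CPM in the other PFOS libraries and 224 to 504 CPM in vehicle libraries, with a log2 fold change of 0.83 with library 31 and 0.53 without it (edgeR adjusted p = 0.0393 and 0.152). Kitlg, the gene of stem cell factor, was at 82.1 CPM there, against 7.09 to 23.1 CPM in the other PFOS libraries and 6.13 to 21.9 CPM in vehicle libraries, with a log2 fold change of 0.92 with library 31 and 0.40 without it (edgeR adjusted p = 0.0362 and 0.309). Sv2b, a synaptic vesicle gene, had 219 CPM there and an edgeR adjusted p of 0.173 without it. Dusp6, a phosphatase gene of the ERK pathway, had 322 CPM there, against 58.6 to 178 CPM in the other PFOS libraries and 44.3 to 124 CPM in vehicle libraries, and its log2 fold change was 0.92 with library 31 and 0.69 without it (edgeR adjusted p = 0.0222 and 0.0715). Qrich1, with the largest rise at 0.93, was at 431 CPM there and at 130 to 353 CPM in the other PFOS libraries, against 88.0 to 202 CPM in vehicle libraries, and its log2 fold change without library 31 was 0.84 (edgeR adjusted p = 0.0575). Wwp2, a ubiquitin ligase gene, changed by 0.76 with library 31 and 0.64 without it (edgeR adjusted p = 0.0406 and 0.123).

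**Figure D5:**
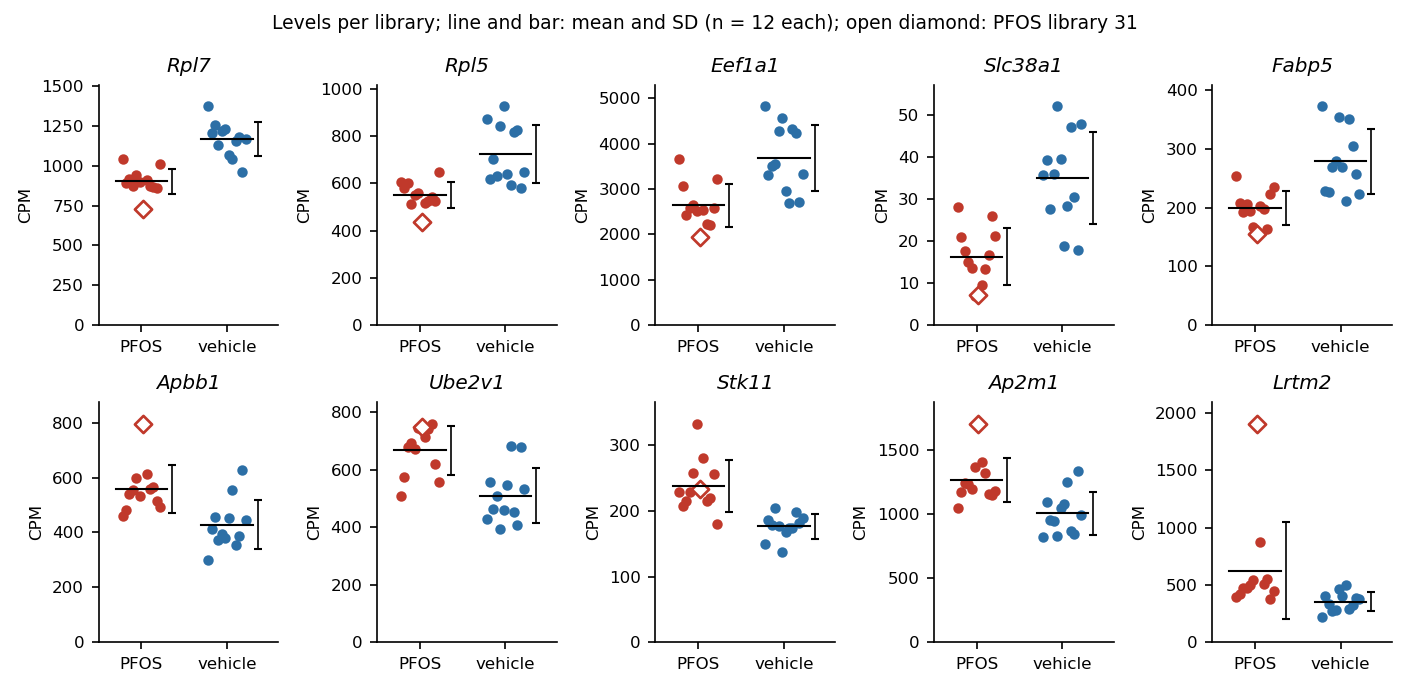
Level per library in CPM, PFOS left and vehicle right, for 10 called genes, with the mean (line) and SD (bar) of 12 libraries each; the open diamond is PFOS library 31. Rpl7, Rpl5, Eef1a1, Slc38a1 and Fabp5 are lower and Apbb1, Ube2v1, Stk11 and Ap2m1 higher in PFOS with or without that library, while for Lrtm2 that library stands at 1907 CPM above all others.

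Hypothalamic peptide genes did not pass. Of 9 tested genes for releasing and magnocellular hormones and 17 for feeding and arousal peptides, 0 were called, with or without library 31, which is near the background of 4.37% (0.826% without it). The median log2 fold change of the first list was -0.16 with library 31 and -0.02 without it, and that of the second -0.10 and -0.01. Cck, the cholecystokinin gene, changed sign with that library, at 0.50 with it and -0.16 without it. In the 11 other PFOS libraries Oxt ran from 961 to 1420 CPM, against 368 to 1755 CPM in vehicle libraries, with a log2 fold change of -0.01 ± 0.15 (edgeR adjusted p = 0.998 without library 31). Avp had 343 to 550 CPM in these PFOS libraries and 222 to 925 CPM in vehicle libraries. Trh, the top signal of the thyroid axis, had 156 to 293 CPM in these PFOS libraries and 146 to 277 CPM in vehicle libraries, with a log2 fold change of -0.06 ± 0.10 (edgeR adjusted p = 0.826 without library 31). Pomc, the melanocortin precursor gene, had 77.5 to 201 CPM in PFOS and 100.4 to 332 CPM in vehicle libraries, and its log2 fold change of -0.38 did not pass (edgeR adjusted p = 0.140, and 0.261 without library 31). Pomc is also a pituitary transcript, and its vehicle level was 1.69% of that in the pituitary libraries, beside 1.55% for Gh1. Library 31 held Pomc at 86.2 CPM, within the 73.4 to 332 CPM of the other hypothalamus libraries. Pituitary hormone genes held 0.604% of counts in PFOS and 0.615% in vehicle libraries. How much of the Pomc counts came from pituitary RNA was not tested.

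Genes of thyroid hormone transport, metabolism and reception (12 tested of 20) and thyroid hormone response genes (11 tested) had 0 calls with and without library 31, near the background of 4.37% and 0.826%. The deiodinase gene Dio2, which activates thyroxine in glia, had 16.8 to 33.7 CPM in PFOS and 14.4 to 42.2 CPM in vehicle libraries (log2 fold change -0.03 ± 0.18, edgeR adjusted p = 0.960, and -0.06 without library 31). The receptor gene Thra had 33.5 to 73.9 CPM in PFOS and 32.1 to 103 CPM in vehicle libraries (log2 fold change -0.40 ± 0.16, edgeR adjusted p = 0.136, and -0.33 without library 31). Klf9, a hormone-responsive transcription factor gene, had 30.6 to 99.0 CPM in PFOS and 34.1 to 76.8 CPM in vehicle libraries, with a log2 fold change of -0.01 ± 0.16 (edgeR adjusted p = 0.988) that was -0.08 without library 31 and changed sign with the depth setting. The receptor gene Thrb and the corepressor gene Hr were too scarce to test.

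Markers of other cell types mostly did not pass between PFOS and vehicle. Astrocyte genes (17 tested), microglia and macrophage genes (13), endothelial and mural cell genes (13), ependymal and tanycyte genes (8), blood cell genes (6), pituitary hormone genes (6) and the 1 testable choroid plexus gene (Folr1) had 0 calls, with and without library 31, where 4.37% and 0.826% of all genes were called. The share of counts was 2.51 ± 0.28% in PFOS and 2.67 ± 0.34% in vehicle libraries for astrocyte genes, and 0.590 ± 0.139% in PFOS and 0.618 ± 0.159% in vehicle libraries for blood cell genes (SD, n = 12 each). Without library 31 the PFOS means were 2.56% and 0.595%. Of 17 myelin genes tested 1 fell (background 3.21%), Mobp (log2 fold change -0.59, edgeR adjusted p = 0.0199, and 0.0513 without library 31). Of 6 oligodendrocyte precursor genes 1 rose (background 1.15%), the proteoglycan gene Bcan (0.39, edgeR adjusted p = 0.0390, and 0.0513 without library 31). In PFOS with vancomycin against vancomycin alone, 6 of the 17 astrocyte genes were lower (background 4.88%), with a median log2 fold change of -0.18. With the log2 total as covariate 5 were lower there (background 1.49%), with a median of -0.22. Of the myelin genes 3 were lower there, and 1 with the covariate. The microglia and blood cell lists each had 1 lower gene there, the endothelial list 1 higher (background 7.82% in both directions), and the other lists 0. With the covariate the microglia, blood cell and endothelial lists had 0 calls there. Fewer cells of a type and less RNA per cell cannot be told apart in such bulk samples. The depth limited several lists: 27 of 30 neuropeptide and hormone receptor genes and 22 of 34 immediate early and ERK feedback genes were too scarce to test.

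Lists of genes known to respond to PFOS in liver were counted too. Of 22 tested PPARalpha target genes 0 were called, and 0 of 10 tested targets of the receptors CAR and PXR, with and without library 31, near the background of 4.37% and 0.826% for lists of this size. Their median log2 fold changes were -0.05 and 0.00 with it and 0.03 and -0.03 without it. Acot2, an acyl-CoA thioesterase gene with the smallest p of the PPARalpha list, had 137 to 240 CPM in PFOS and 116 to 174 CPM in vehicle libraries. In 9 PFOS libraries it was above the highest vehicle library, and the log2 fold change of 0.44 ± 0.18 had an edgeR adjusted p of 0.161 (0.184 without library 31). Cholesterol synthesis genes (24 tested), circadian clock genes (10) and glucocorticoid response genes (10) had 0 calls likewise (background 4.37%, and 0.826% without library 31). Among stress and metabolic lists a few genes passed with all libraries (background 3.21% lower and 1.15% higher) and none without library 31. Sod1 (-0.37) was lower among 21 oxidative stress genes tested, and Calr (-0.22) among 20 genes of endoplasmic reticulum folding. Among 21 heat shock and chaperonin genes Hsp90aa1 (-0.21) was lower and Hspa8 (0.23) higher. The edgeR adjusted p of these genes ran from 0.0309 to 0.0481. Of 22 genes of glycolysis and lactate handling Gapdh (-0.36) was lower and Aldoa (0.24) higher. Of 20 citric acid cycle genes Sucla2 (0.30) and Dld (0.32) were higher. Of 37 proteasome subunit genes the ATPase genes Psmc1 (0.28) and Psmc3 (0.24) were higher. Of 79 oxidative phosphorylation genes Ndufb4 (0.20) was higher and Ndufc2 (-0.32) lower. For these 8 genes the edgeR adjusted p ran from 0.0238 to 0.0495.

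The rats that received vancomycin gave a further estimate of the PFOS effect. Its libraries belonged to neither the PFOS nor the vehicle group, but both estimates came from a model that shares the filter and the dispersions. With only the PFOS and vehicle groups in the model 294 of 6112 genes were called, and 218 of those were among the 288. PFOS with vancomycin against vancomycin alone called 516 of 6596 genes (7.82%), of which 322 were lower (4.88%). Of the 288 genes, 280 changed in the same direction there, against 4710 of all 6596 genes, and 128 were called in that direction. With the log2 total as covariate 268 of the 288 had that direction, against 4416 of all genes, and 68 were called in it (background 1.83%). Depth differed between those groups as well, with means of 532574 counts in PFOS with vancomycin libraries and 740349 counts in vancomycin libraries. Of the 79 cytosolic ribosomal protein genes 69 were lower (background 4.88%), with a median log2 fold change of -0.41, and with the log2 total as covariate 53 were lower (background 1.49%), with a median of -0.28. Their share of counts was 9.73 ± 1.07% in PFOS with vancomycin libraries (n = 11) and 12.1 ± 1.09% in vancomycin libraries (n = 12). Rpl7 changed by -0.26 there (edgeR adjusted p = 0.00271), Rpl5 by -0.39 (edgeR adjusted p = 0.000757), Fabp5 by -0.54 (edgeR adjusted p = 0.000530) and Sptbn1 by -0.79 (edgeR adjusted p = 0.0140). Apbb1 changed by 0.39 (edgeR adjusted p = 0.00218), Ube2v1 by 0.35 (edgeR adjusted p = 0.00802) and Ap2m1 by 0.31 (edgeR adjusted p = 0.00768). Slc38a1 at -0.49 (edgeR adjusted p = 0.128), Stk11 at 0.07 (edgeR adjusted p = 0.748) and Me2 at -0.07 (edgeR adjusted p = 0.852) did not pass there. The difference between the PFOS effects with and without vancomycin was called for 0 of 6596 genes (0%; edgeR, 278 at an unadjusted p under 0.05), and for 0 with the covariate (307 at an unadjusted p under 0.05) or in DESeq2 (267). Without library 31 it was called for 0 as well (edgeR, 256 at an unadjusted p under 0.05). A p that misses the threshold does not show that the PFOS effects were alike.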

How the data were processed

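RNA counts of 24 hypothalamus libraries (12 PFOS, 12 vehicle) were compared. The deposited values were whole-number counts per gene and library for 17483 genes, with no normalization apparent in them; RNA was barcoded by 3' bulk RNA barcoding, per the labels' protocols. BWA 0.7.4.4 and the build rn6 were listed without a role, per the submitters' processing notes, and the remaining steps are not given in the sources used here. The deposited table's name carries the letters umi, which points to unique molecules, but the labels' protocols do not say so.

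All hypothalamus libraries of at least 100000 counts (47 of 48) were fitted as 4 groups in edgeR 4.0.16 (R 4.3.3): filterByExpr at a minimum count of 10, TMM factors, robust quasi-likelihood F test, contrast PFOS minus vehicle, Benjamini-Hochberg adjustment over all genes tested, threshold 0.05. "Rose", "fell" and "called" refer to it. CPM values use the TMM factors, except shares and the tissue check, which use raw totals. The SE is the log2 fold change divided by the square root of F. The difference in totals used a two-sided permutation test with 100000 resamples (scipy 1.17.1). Alternatives were log2 total as covariate, DESeq2 1.42.0, its size factors, no filter, limma 3.58.1 voom, only the 2 groups, a minimum total of 500000, all libraries, thinning to 379843 counts, the shared range of totals, well column, barcode GC and leaving out each library. Fits without PFOS library 31 combined with the covariate, the shared range or DESeq2 were added after its profile was seen. The scripts were tested on simulated data.

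The members and the 36 gene lists were chosen with earlier results of these data known. Named genes are the 12 rises and 12 falls with the smallest p, the 6 largest changes each way at a mean count of at least 5, genes called with the covariate, up to 4 called members per list (2 by p where none was called), and a set of thyroid and peptide genes. Genes that describe library 31, and Rps12, Tcf7l2, Cck, Rpl35al1, Rpl36al, Etf1, Gspt1 and further list members named above outside that rule, were chosen after their values were seen. Of the gene names tested, 6433 matched RefSeq (GRCr8) directly and 120 through a synonym. Promoter windows come from RefSeq (GRCr8). Counting was not stated to use strand, and ribosomal protein genes have many near-identical pseudogene copies, so their counts may include reads of copies.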

Additional observations from a re-analysis of the deposited data

How the results depend on the processing

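The count of 288 called genes was within 1.5 times under DESeq2 (346), its size factors (287), limma voom (379), only the 2 groups (294), all libraries (277) and barcode GC (403). Barcode GC was the same in every PFOS and vehicle library, and the library added under all libraries belonged to neither group. Those settings could act only through the shared filter, normalization and dispersions, so here and in the counts below they are no separate check. It moved to 2 with the log2 total as covariate, 165 with no filter on low counts, 8 with only the 2 groups and the covariate, 158 at a minimum total of 500000, 154 after thinning, 0 within the shared range of totals and 169 with well column as factor. Leaving out 1 library gave 40 to 490 calls, and without PFOS library 31 the count was 54, 1 with the covariate, 0 within the shared range and 191 in DESeq2. In all 10 settings without a depth term 70 of the 288 were called. The share of rises among calls was 26.4%, but 41.4% in limma voom, 38.96% with barcode GC and 18.8% with no filter. For 59 called named genes, chosen in the same libraries, 0 of 923 values under another setting changed sign. Among named genes that were not called, 15 values changed sign, and leaving out 1 library took Dio2 up to 0.065 and Klf9 up to 0.052. Folr1 was -0.022 with the covariate, -0.064 within the shared range and -0.029 there without library 31. Gstm1 was -0.028 with the covariate, -0.060 with the 2 groups and the covariate and -0.013 within the shared range. Dio2 was 0.25 after thinning. Klf9 was 0.050 with the covariate, 0.067 with the 2 groups and the covariate, 0.0053 with all libraries, 0.12 within the shared range and 0.034 there without library 31. Oxt without library 31 was 0.041 with the covariate and 0.056 within the shared range, and Avp was 0.11 there. The cause was not tested. No paired analysis was possible because the PFOS and vehicle groups share no replicate number. Depth limits the calls for genes near 10 counts per library.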

Other observations

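The share of counts in cytosolic ribosomal protein genes differed in direction between tissues of the same series, given here as values with no test. It was 14.6 ± 1.44% in PFOS thyroid (n = 10) and 16.7 ± 1.83% in vehicle thyroid (n = 12), with mean totals of 506273 and 797237 counts. In pituitary it was 11.3 ± 2.89% with PFOS and 10.2 ± 2.62% with vehicle (n = 12 each), with mean totals of 545865 and 458442 counts. In liver it was 5.82 ± 1.55% with PFOS (n = 8) and 4.44 ± 0.99% with vehicle (n = 9), with mean totals of 502137 and 473233 counts.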
